A study of Mus musculus with 14 samples.

Results

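Specific granule protein genes were followed in blood neutrophils of mice. The genes are Ltf, Camp, Ngp, Lcn2, Chil3, Olfm4, Lyz2, Hp and Lrg1, taken by their mouse symbols from a table of normalized read counts. All 9 were found among the 11288 genes of the table. The 14 libraries fall into 5 groups of male C57BL/6 mice aged 7 to 10 weeks. Wild-type mice, without Cre, were bled at zeitgeber time (ZT) 5, clock time 12 h (n = 3), or at ZT13, clock time 20 h (n = 3). Mice of the genotypes BMALf/f x Mrp8Cre (n = 3), CXCR2f/f x Mrp8Cre (n = 2) and CXCR4f/f x Mrp8Cre (n = 3) were bled at ZT5. They carry floxed alleles of the clock gene Bmal1 (Arntl), of the chemokine receptor gene Cxcr2 or of the chemokine receptor gene Cxcr4, and a Cre driven by the Mrp8 promoter, which is active in neutrophils and their marrow precursors. Red cells were lysed, cells staining for the neutrophil surface protein Ly6G were sorted, and their polyA RNA was amplified for sequencing. Since all mutants and no wild-type mice carry the Cre, an effect of the Cre and one of the deleted gene cannot be told apart against wild type, while mutants compared with each other share it. The labels do not say whether replicates are separate animals, so p-values measure the spread between these libraries, which may be technical.

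Neutrophils fill their granules one class after another while they mature in the bone marrow, and each class holds the proteins made at that stage. Specific granules, also called secondary granules, are filled at the myelocyte and metamyelocyte stages with antimicrobial proteins and with proteins that take iron away from bacteria. Mature neutrophils that have left the marrow keep the proteins, while the mRNAs of most of them have fallen to a small part of their level in the marrow. C/EBP epsilon, a transcription factor, is needed for the making of specific granules in mice.

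Reads recovered over the genes of the table numbered between 4082276 and 6678645 per library. Cxcr4, the targeted gene, lay between 13.2 and 26.2 normalized reads in the Cxcr4 mutants and between 268 and 653 in all other libraries. Cxcr2 read 1354 and 1439 in the libraries labelled Cxcr2-deficient, inside the 1321 to 2377 of the others. Arntl had 0 to 26 reads in every library outside wild type at ZT5, where it had 100, 25 and 13. Neither gene therefore checked its label, and those groups are called by their labels. The 8 neutrophil markers were all measured, and their summed level was 9884 to 17701 in wild type at ZT5, 15974 to 16409 at ZT13, 21090 to 22729 under the label Bmal1-deficient, 22445 to 26346 under the label Cxcr2-deficient and 30439 to 39256 in the Cxcr4 mutants. Red cell RNA moved the other way in the Cxcr4 mutants, where the sum of 8 erythroid markers was 4165 to 13899, and 21274 to 118771 elsewhere. Under the label Bmal1-deficient this sum was 59412.5 to 118771, against 21274 to 67155 in wild type at ZT5, with 2 of the 8 markers higher. Against wild type at ZT5, 7 of the 8 erythroid, 8 of the 10 B cell and 6 of the 9 measured monocyte markers were lower in the Cxcr4 mutants. The B cell sum was 52.3 to 95.2 there against 408 to 3184 in wild type at ZT5, and the monocyte sum was 524 to 646 against 813 to 1388, with Ly6c2 alone higher. Ly6c2 is part of that monocyte sum, with a mean of 288 in the Cxcr4 mutants and 34.3 in wild type at ZT5. The sum of 6 platelet markers was 45.6 to 124 in the Cxcr4 mutants and 43.5 to 618 elsewhere, that of the 3 measured eosinophil and basophil markers 16.9 to 90.5 over all libraries, with Ms4a2 at 0 in the Cxcr4 mutants and Siglecf lower there (-1.31, limma adjusted p = 0.0378), and that of the 3 measured T and NK cell markers 9.22 to 37.8. Replicate 5 of wild type at ZT5 stood apart from the other replicates of its group, with a neutrophil marker sum of 9884 against 17701 and 15988 and a B cell marker sum of 3184 against 408 and 904, and it was the lowest of the 3 for 6 members. The part of these markers in the results that follow was not tested.

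Of the members, 3 lie close together on chromosome 9 (GRCm38, GENCODE genes): Camp on the minus strand at 109847379 to 109849617, Ngp on the plus strand at 110419747 to 110423012 and Ltf on the plus strand at 111019271 to 111042767, within 1.195 Mb. Their upstream sequences are shown because these genes moved together, with that of Lrg1, which did not, for contrast. The bases before the gene's start in both RefSeq and GENCODE are given 5′ to 3′ on the gene's strand, from RefSeq (GRCm38.p6), for Camp at chr9:109849618-109849706 (minus), Ngp at chr9:110419558-110419746 (plus), Ltf at chr9:111019042-111019270 (plus) and Lrg1 at chr17:56122002-56122196 (minus). Capitals mark matches to the C/EBP motif TTNNGNAA on either strand.
Camp: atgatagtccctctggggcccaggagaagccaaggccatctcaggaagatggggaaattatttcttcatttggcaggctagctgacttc
Ngp: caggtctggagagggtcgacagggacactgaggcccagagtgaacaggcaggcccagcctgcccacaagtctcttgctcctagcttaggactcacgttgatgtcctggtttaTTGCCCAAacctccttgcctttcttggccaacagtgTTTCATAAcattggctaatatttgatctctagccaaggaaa
Ltf: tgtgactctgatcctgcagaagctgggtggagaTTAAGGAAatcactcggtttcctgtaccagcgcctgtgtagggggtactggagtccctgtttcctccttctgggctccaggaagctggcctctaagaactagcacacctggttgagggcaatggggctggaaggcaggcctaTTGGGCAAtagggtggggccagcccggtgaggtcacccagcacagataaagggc
Lrg1: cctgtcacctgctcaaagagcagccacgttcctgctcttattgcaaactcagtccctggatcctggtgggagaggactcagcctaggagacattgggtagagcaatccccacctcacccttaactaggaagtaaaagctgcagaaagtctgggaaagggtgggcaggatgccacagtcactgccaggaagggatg
In the 250 bases before the RefSeq start, Ngp held 3 matches, at -138 to -131, -102 to -95 and -11 to -4, and the last lies outside the bases shown. Ltf held 2, at -217 to -210 and -75 to -68, counted back from -1 at the base before the start. Camp and Lrg1 held none, so presence of these letters did not separate the genes that moved from the one that did not. RefSeq windows were found for 8 members, and 6 of the 8 held the motif (Ngp, Ltf, Lcn2, Chil3, Lyz2 and Olfm4), beside 36.8% of 32851 promoter windows of the same length. The PU.1 motif GAGGAA, searched on both strands, was in 3 of the 8 (Lcn2, Ltf and Olfm4) and in 23.3% of all windows. The motifs do not overlap with each other in these windows. A match is a description of the letters and no evidence of binding.

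Camp encodes the precursor of the mouse cathelicidin, a peptide that breaks bacterial membranes. In wild type, Camp had 20.0, 7.60 and 24.5 normalized reads at ZT5 and 28.6, 2.11 and 9.50 at ZT13. The libraries labelled Bmal1-deficient had 22.0, 56.9 and 23.8 and those labelled Cxcr2-deficient 16.1 and 33.5. In the Cxcr4 mutants Camp stood at 1834, 2398 and 2314. The lowest Cxcr4 mutant library was 32.2 times the highest of the other 11, and the other 4 groups overlapped. The mean was 2182 ± 304 (SD, n = 3) against 17.4 ± 8.75 (SD, n = 3) in wild type at ZT5, a ratio of 126. On the scale of log2(value + 1), on which the main limma tests were made, the difference was 7.03 with a standard error of 0.54 (limma, adjusted p = 1.93e-09).

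Ngp, for neutrophilic granule protein, encodes a relative of the cathelicidins and cystatins. Ngp levels in wild type were 24.7, 28.5 and 82.4 at ZT5 and 82.8, 32.3 and 24.4 at ZT13. The libraries labelled Bmal1-deficient stood at 25.2, 85.2 and 25.4, and those labelled Cxcr2-deficient at 22.0 and 72.6. The Cxcr4 mutants gave 2617, 5557 and 3733. Outside the Cxcr4 mutants every group held 1 library at 72.6 or more and at least 1 at 28.5 or less, so the 4 groups covered nearly the same range, and all Cxcr4 mutant libraries were at least 30.7 times higher than the highest of them. The mean rose from 45.2 ± 32.3 (SD, n = 3) in wild type at ZT5 to 3969 ± 1484 (SD, n = 3), by 6.57 on the log2 scale (SE 0.49, limma adjusted p = 1.19e-09).

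Ltf encodes lactoferrin, which binds iron and is the protein by which specific granules are usually recognised. Wild-type libraries had 33.6, 18.4 and 41.4 normalized reads of Ltf at ZT5 and 77.9, 14.2 and 29.0 at ZT13. Those labelled Bmal1-deficient had 25.9, 66.8 and 27.0, and those labelled Cxcr2-deficient 9.92 and 37.9. The Cxcr4 mutants had 2958, 4201 and 3718. All of them lay far above the rest, at least 38.0 times the highest other library, which was a wild-type library at ZT13. In reads, Ltf was counted 14809 to 20651 times per Cxcr4 mutant library and 45 to 446 times elsewhere. The RNA was amplified, so these reads need not stand for as many separate molecules. The mean was 3626 ± 627 (SD, n = 3) against 31.1 ± 11.7 (SD, n = 3) at ZT5, 117 times as high, and the log2 difference was 6.88 (SE 0.47, limma adjusted p = 2.82e-10). Ordered by fold change among the 11255 genes tested, Camp, Ltf and Ngp took places 1, 2 and 3.

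Lcn2 encodes lipocalin 2, which captures the siderophores with which bacteria take up iron. Lcn2 (GRCm38 chromosome 2, 32384633 to 32388252, minus strand) had 322, 674 and 651 normalized reads in wild type at ZT5 and 442, 545 and 660 at ZT13. In the libraries labelled Bmal1-deficient it had 586, 878 and 892, and in those labelled Cxcr2-deficient 701 and 1220. The Cxcr4 mutants had 2545, 3896 and 3370, above every other library by a factor of at least 2.09. Its wild-type level at ZT5, 549 ± 197 (SD, n = 3), amounted to 209 per kb of exon, against 9.02 to 37.0 per kb for Ltf, Camp and Ngp. It rose 5.96 times to 3270 ± 681 (SD, n = 3). The log2 difference was 2.63 (SE 0.25, limma adjusted p = 1.40e-07).

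**Figure D1:**
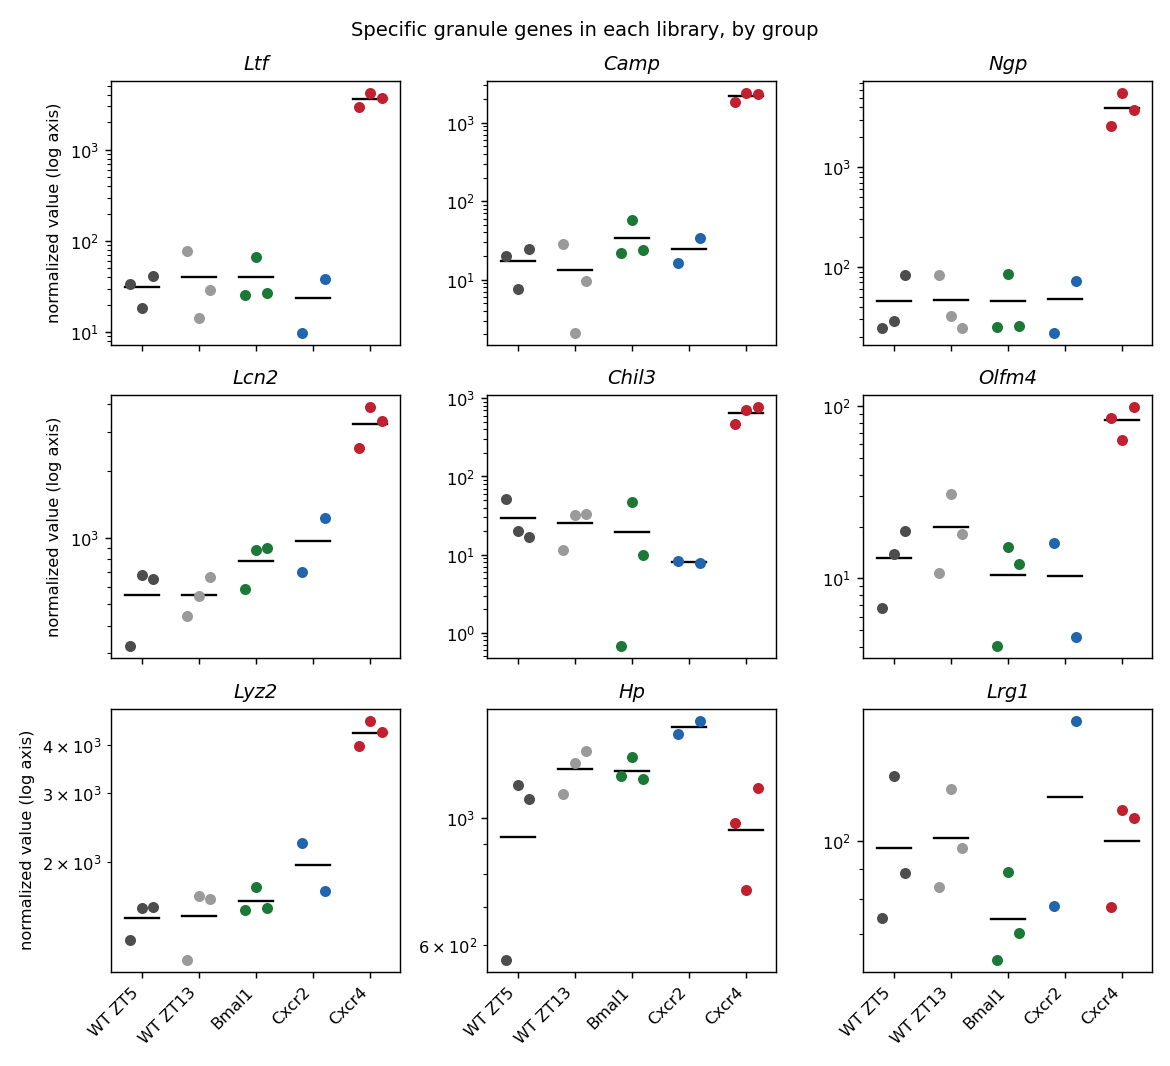
Normalized reads of each of the 9 specific granule protein genes in every library, on a log axis, by group; each point is 1 library and the bar is the group mean. Ltf, Camp and Ngp stand at 1834 to 5557 in the Cxcr4 mutants and at 2.11 to 85.2 in all other libraries, while Hp and Lrg1 overlap between the Cxcr4 mutants and wild type at ZT5.

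Chil3 encodes Ym1, a chitinase-like lectin of mouse myeloid cells. Chil3 (chromosome 3, 106147554 to 106167564, minus strand) had 52.1, 20.3 and 16.7 normalized reads in wild type at ZT5 and 11.5, 31.7 and 33.4 at ZT13. The libraries labelled Bmal1-deficient were the most uneven, with 0.673 (4 reads), 47.6 and 9.91, and those labelled Cxcr2-deficient had 8.37 and 7.81. The Cxcr4 mutants had 469, 703 and 778, each at least 8.99 times the highest other library. The mean was 650 ± 161 (SD, n = 3) against 29.7 ± 19.5 (SD, n = 3) at ZT5, and the log2 difference of 4.55 (SE 0.71, limma adjusted p = 0.000105) put Chil3 at place 10 by fold change.

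Olfm4 encodes olfactomedin 4, a glycoprotein that in mice and humans is held in the specific granules of only some neutrophils. By its mean per kb of exon it was the lowest of the 9 genes in wild type at ZT5 and in the Cxcr4 mutants. Olfm4 (chromosome 14, 79984081 to 80023139, plus strand) had 6.74, 13.9 and 18.7 normalized reads in wild type at ZT5 and 10.8, 30.9 and 18.03 at ZT13. It had 4.04, 15.3 and 12.2 in the libraries labelled Bmal1-deficient and 16.1 and 4.59 in those labelled Cxcr2-deficient. In the Cxcr4 mutants it had 85.1, 63.9 and 99.4, all above the highest other library, by a factor of at least 2.07. The difference from wild type at ZT5 was 2.65 on the log2 scale (SE 0.57, limma adjusted p = 0.00368).

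Lyz2 encodes lysozyme M, which cuts bacterial cell walls, is kept in several granule classes and is also made by monocytes and macrophages. Lyz2 (chromosome 10, 117277331 to 117282321, minus strand) stood at 1256, 1515 and 1525 in wild type at ZT5 and 1116, 1634 and 1606 at ZT13. It stood at 1500, 1720 and 1519 in the libraries labelled Bmal1-deficient and 2226 and 1683 in those labelled Cxcr2-deficient. The Cxcr4 mutants had 3957, 4610 and 4301. They were above every other library by a factor of at least 1.78 and varied least of the members that rose, with a coefficient of variation of 7.61%. The mean rose from 1432 ± 153 to 4289 ± 326 (SD, n = 3 each), a log2 difference of 1.58 (SE 0.18, limma adjusted p = 1.42e-06). Lyz1, the close paralogue with which reads could be shared, had 0 to 80 reads per library, but these counts are themselves a product of how shared reads were divided. Chil4, a close paralogue of Chil3, was not analysed here. The Lyz2 and Chil3 levels are uncertain to that extent.

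Hp encodes haptoglobin, which binds free haemoglobin, and in human neutrophils it is a specific granule protein. Hp (chromosome 8, 109575128 to 109579172, minus strand) had 565, 1140 and 1079 normalized reads in wild type at ZT5 and 1102, 1250 and 1310 at ZT13. In the libraries labelled Bmal1-deficient it had 1183, 1278 and 1169, and in those labelled Cxcr2-deficient 1400 and 1480. The Cxcr4 mutants had 982, 750 and 1129, inside the range of wild type at ZT5. Their mean was 953 ± 191 (SD, n = 3) against 928 ± 316 (SD, n = 3), and the log2 difference of 0.09 had a 95% interval of -0.35 to 0.52 (limma adjusted p = 0.870). Lrg1 encodes leucine-rich alpha-2-glycoprotein 1, a secreted protein that human neutrophils store in granules. Lrg1 (chromosome 17, 56119678 to 56122001, minus strand) had 74.5, 129 and 88.6 in wild type at ZT5, 83.8, 122 and 97.4 at ZT13 and 77.7, 113 and 109 in the Cxcr4 mutants. The libraries labelled Bmal1-deficient had 63.2, 88.9 and 70.3 and those labelled Cxcr2-deficient 78.0 and 159. All 5 groups overlapped for Lrg1, and the log2 difference between the Cxcr4 mutants and wild type at ZT5 was 0.06 with an interval of -0.52 to 0.64 (limma adjusted p = 0.942). For these 2 genes the intervals exclude the rise of Lyz2, 1.58, the smallest among the members that rose.

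Against wild type at ZT5, 7 of the 9 members were therefore higher in the Cxcr4 mutants and 0 were lower at an adjusted p of 0.05, in limma with Benjamini-Hochberg adjustment over all genes. Over all 11255 genes tested, 8.2% were called in this comparison, 4.05% as higher and 4.15% as lower. The members' median log2 difference was 2.65, beside -0.11 over all genes. All 7 genes had Cxcr4 mutant libraries that did not overlap with wild type at ZT5, as did 12.1% of all genes in that direction, while 0 members and 14.1% of all genes were lower without overlap. Both edgeR's quasi-likelihood test and DESeq2 on the recovered reads called the same number, 7. These are bulk libraries, in which more cells with a given mRNA and more of that mRNA per cell cannot be told apart.

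The neutrophil markers were themselves higher in the Cxcr4 mutants, 6 of the 8 past the test: Retnlg by 2.53, Ly6g, the gene of the sort marker, by 2.73, S100a8 by 1.80, S100a9 by 1.70, Itgam by 1.28 and Mmp9 by 1.26 on the log2 scale. The other markers, Csf3r at -0.30 and Cxcr2 at 0.12, did not pass. Set against the summed level of the 8 markers, a scaling chosen after the data were seen, the ratio of Cxcr4 mutants to wild type at ZT5 was 46.2 for Camp, 43.4 for Ltf, 35.5 for Ngp, 7.29 for Chil3, 2.46 for Lcn2 and 2.69 for Olfm4. For Lyz2 it was 1.18, and the 116 to 130 reads per 1000 of marker level in the Cxcr4 mutants overlapped with the 63.9 to 127 of the other libraries. That overlap rests on wild-type replicate 5 at ZT5 alone, with 1256 normalized reads of Lyz2 and a marker sum of 9884. Olfm4 overlapped too on this scale, with 1.63 to 2.80 against 0.174 to 1.93. Hp and Lrg1 turned lower, to ratios of 0.433 and 0.412, and their Cxcr4 mutant libraries, 19.1 to 32.3 for Hp and 2.55 to 2.96 for Lrg1, lay below all others. The markers did not rise alike, so all these ratios depend on which of them dominate the sum. Scaling to single markers was not tested. In the mean, the rises of Ltf, Camp, Ngp, Chil3, Lcn2 and Olfm4 are thus larger than that of the marker sum, for Olfm4 with overlap. That of Lyz2 is close to it in the mean, in which replicate 5 of wild type at ZT5 raises the wild-type value.

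**Figure D2:**
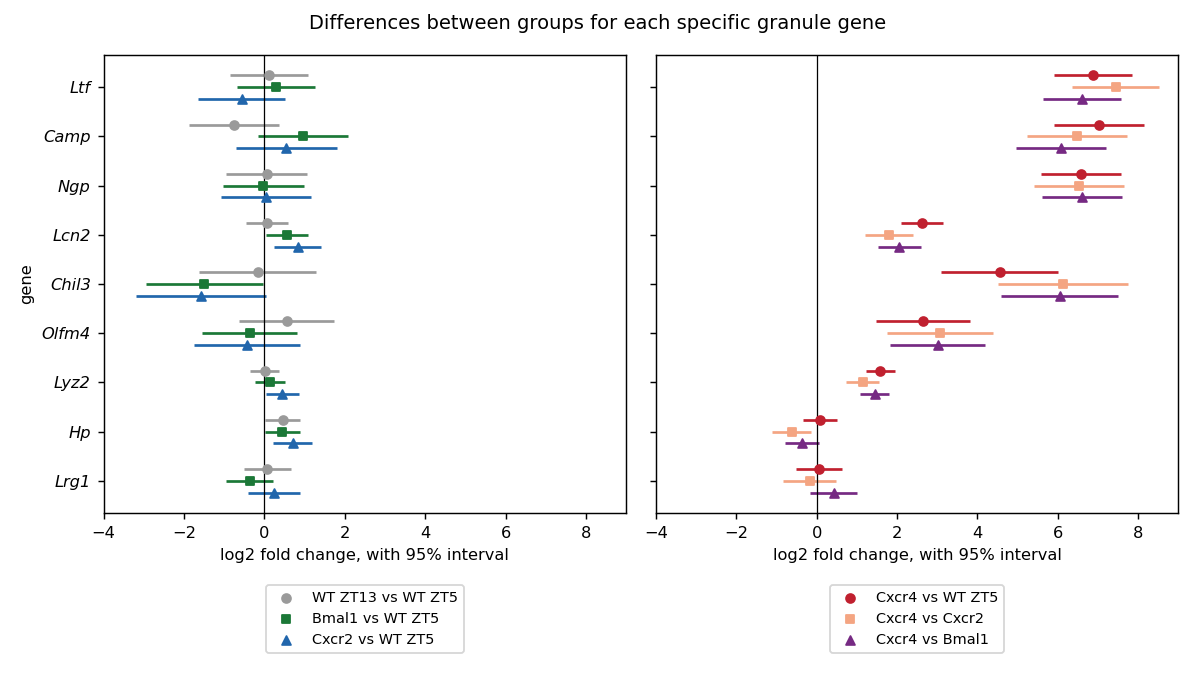
Log2 difference of each specific granule protein gene in each comparison, with the 95% interval of the limma fit; points to the right of 0 are higher in the group named first. In the 3 comparisons of the Cxcr4 mutants 7 members lie to the right with adjusted p under 0.05, and in the 3 others no member passed it.

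The Cxcr4 mutants were next compared with the other mutants, which carry the same Cre and were bled at the same ZT. Against the libraries labelled Cxcr2-deficient, 7 of 9 members were higher and 0 lower, where 4.13% of all genes were called, 2.28% as higher and 1.85% as lower. Log2 differences were 7.44 for Ltf (limma adjusted p = 1.08e-09), 6.52 for Ngp (1.60e-08), 6.48 for Camp (1.17e-07), 6.13 for Chil3 (1.28e-05), 3.08 for Olfm4 (0.00377), 1.80 for Lcn2 (0.000220) and 1.14 for Lyz2 (0.000595). The Olfm4 call was lost without Cxcr2 replicate 5, the lower for Olfm4, where the difference was 2.27 with an adjusted p of 0.130. Hp did not overlap in this comparison, being lower in all Cxcr4 mutants by 0.61 in the mean (interval -1.10 to -0.13), and missed the threshold (adjusted p = 0.160); 16.7% of all genes were lower without overlap, and 16.8% higher, as 7 members were. Lrg1 gave -0.18 with an interval of -0.83 to 0.47.

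Against the libraries labelled Bmal1-deficient the same 7 members were higher and 0 were lower, where 5.7% of all genes were called, 3.19% as higher and 2.51% as lower. Ltf and Ngp both differed by 6.60 on the log2 scale (limma adjusted p = 5.46e-10 and 7.78e-10), Camp by 6.08 (2.49e-08) and Chil3 by 6.05 (1.74e-06). Olfm4 differed by 3.01 (0.00120), Lcn2 by 2.06 and Lyz2 by 1.44 (4.40e-06 each). Hp, at -0.36 (adjusted p = 0.371), and Lrg1, at 0.42 (0.456), were not called. The libraries of 7 members were higher without overlap, as for 12.6% of all genes, and those of Hp lower, as for 11% of them. The same 7 genes were thus called in all 3 comparisons of the Cxcr4 mutants. Erythroid markers were lower in these comparisons too, 7 of 8 against the libraries labelled Cxcr2-deficient and 8 of 8 against those labelled Bmal1-deficient. The neutrophil marker sum of the Cxcr4 mutants lay above that of both groups, with 3 of 8 markers higher against the label Cxcr2-deficient and 4 of 8 against the label Bmal1-deficient. Csf3r, the receptor of the growth factor G-CSF, was lower in both, by -0.93 (limma adjusted p = 0.00933) and -0.85 (0.00593). The part of either marker list in the members' values was not tested.

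The remaining comparisons share wild type at ZT5 as control with the first. Between wild type at ZT13 and ZT5, 0 of the 9 members passed in limma, edgeR or DESeq2, where 0.08% of all genes were called, and 1 had an unadjusted p under 0.05, beside 10.6% of all genes. That gene was Hp, at 1221 ± 107 against 928 ± 316 (SD, n = 3 each), a log2 difference of 0.46 with an interval of 0.03 to 0.89 and an adjusted p of 0.436. Without wild-type replicate 5 at ZT5 the Hp difference was 0.13. Ltf differed by 0.11, Ngp by 0.06, Lcn2 by 0.06, Lrg1 by 0.08 and Chil3 by -0.17. Olfm4 differed by 0.55, with an interval of -0.63 to 1.73. Camp differed by -0.75, with an interval of -1.87 to 0.37 that shows how little 3 libraries fix the level of so low a gene. Lyz2 was at 1452 ± 291 against 1432 ± 153. For all members the ZT13 and ZT5 libraries overlapped, whereas 7.61% of all genes were higher and 8.9% lower without overlap.

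In the libraries labelled Bmal1-deficient, 0 of 9 members passed against wild type at ZT5 in limma, edgeR or DESeq2, where 1.02% of all genes were called. An unadjusted p under 0.05 was found for 3 members and for 13.5% of all genes. Lcn2 was 0.56 higher on the log2 scale (interval 0.04 to 1.09, limma adjusted p = 0.326) and Chil3 1.50 lower, at -1.50 (interval -2.95 to -0.04, adjusted p = 0.353), with 1 library at 4 reads. Chil3 is also made by monocytes, and 5 of the 9 monocyte markers were lower in these libraries, with a sum of 378 to 412; their part in the Chil3 values was not tested. Hp was 0.45 higher (adjusted p = 0.350) and alone did not overlap with wild type at ZT5, while 7.56% of all genes were higher and 10.3% lower without overlap. Without wild-type replicate 5 at ZT5 the differences were 0.12 for Hp, 0.22 for Lcn2 and -1.01 for Chil3. Replicate 3 of this group was the highest of its 3 libraries for 8 members and replicate 2 the lowest for 8, so that the members deviated together within the group.

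In the libraries labelled Cxcr2-deficient, 0 of 9 members passed against wild type at ZT5 in limma, edgeR or DESeq2, where 0.666% of all genes were called and 13.5% had an unadjusted p under 0.05, as did 3 members. Lcn2 was at 961 ± 367 (SD, n = 2) against 549 ± 197, a log2 difference of 0.83 (interval 0.24 to 1.41, limma adjusted p = 0.168). Hp was at 1440 ± 56.7 (SD, n = 2) against 928 ± 316, a difference of 0.70 (interval 0.22 to 1.18, adjusted p = 0.159). Without wild-type replicate 5 at ZT5 these differences were 0.48 for Lcn2 and 0.38 for Hp. Both libraries were above all 3 of wild type for Lcn2, Lyz2 and Hp and below them for Chil3. With groups of 2 and 3, 13.3% of all genes were higher and 17.1% lower without overlap. Chil3, at 8.37 and 7.81, differed by -1.58 with an interval of -3.20 to 0.05, and Lyz2 by 0.44 (adjusted p = 0.328). Of the 9 monocyte markers, 4 were lower here, with Irf8 at 0 and a sum of 403 to 485, and their part in these values was not tested.

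The order of levels among the members also differed between groups, compared per kb of exon. In wild type at ZT5, Lyz2 led with a mean of 1088 normalized reads per kb, before Hp at 578, Lcn2 at 209, Lrg1 at 69.1, Ngp at 37.0, Camp at 22.9, Chil3 at 18.2, Ltf at 9.02 and Olfm4 at 4.44. In the Cxcr4 mutants the order was Lyz2 at 3259, Ngp at 3248, Camp at 2879, Lcn2 at 1247, Ltf at 1051, Hp at 594, Chil3 at 398, Lrg1 at 71.0 and Olfm4 at 27.9. There Ngp changed places with Lyz2 and Camp from library to library. Lyz2 was above Camp in every Cxcr4 mutant library, and Lcn2 was 1.13 to 1.22 times Ltf. These orders were not tested. Among all genes of the table by level per kb, Ltf stood between places 2817 and 4780 in wild type at ZT5 and between 23 and 27 in the Cxcr4 mutants. Camp went from between 1145 and 3229 to between 11 and 15, and Ngp from between 534 and 1720 to between 9 and 13. Lyz2 was within the top 22 genes in both.

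The 9 genes together held 1.68% to 2.24% of the reads recovered over all genes of the table in a Cxcr4 mutant library. Wild-type libraries gave them 0.277% to 0.350% at ZT5 and 0.310% to 0.381% at ZT13. The share was 0.314% to 0.420% under the label Bmal1-deficient and 0.431% to 0.454% under the label Cxcr2-deficient. Ltf, Camp and Ngp made up 0.804% to 1.22% of the recovered reads in the Cxcr4 mutants and 0.00463% to 0.0207% elsewhere. Of the summed member level per kb, Lyz2 and Hp held means of 54.2% and 27.8% in wild type at ZT5 and 25.8% and 4.80% in the Cxcr4 mutants. Camp and Ngp together with Ltf took the larger part there, with means of 22.7%, 24.9% and 8.23%.

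**Figure D3:**
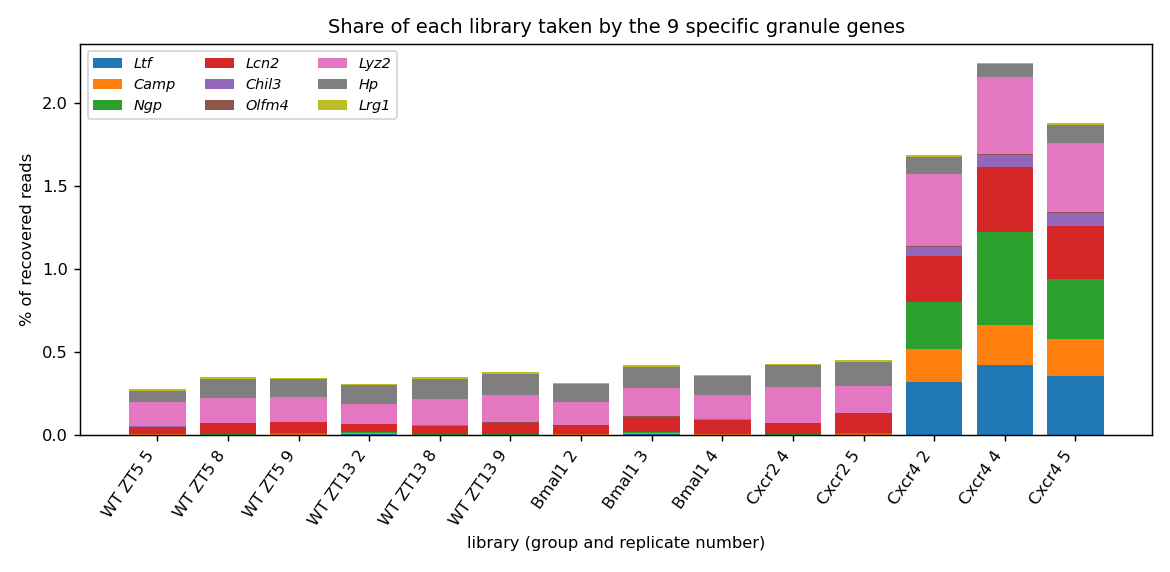
Share of the recovered reads of each library taken by each of the 9 specific granule protein genes, as stacked bars. The bars reach 1.68% to 2.24% in the Cxcr4 mutants and 0.277% to 0.454% in the other libraries. Lyz2 and Hp make up most of every bar outside the Cxcr4 mutants. Camp, Ngp and Ltf are visible as large parts of the bars in the Cxcr4 mutants.

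Ltf, Camp and Ngp were also compared with each other. In the Cxcr4 mutants the level per kb of Ngp was 2.50, 2.83 and 3.73 times that of Ltf in ascending order, and that of Camp 2.60, 2.82 and 2.83 times. In wild type at ZT5 the same ratios were 2.07, 4.38 and 5.62 for Ngp and 1.88, 2.69 and 2.71 for Camp. Those ranges overlapped, while the means rose 117 times for Ltf, 126 for Camp and 87.8 for Ngp. In the other groups the ratio of Camp to Ltf did not overlap with the Cxcr4 mutants, at 0.679 to 1.67 in wild type at ZT13, 3.87 to 4.02 under the label Bmal1-deficient and 4.03 to 7.38 under the label Cxcr2-deficient. The ratio of Ngp to Ltf, at 2.37 to 6.45, 2.66 to 3.60 and 5.41 to 6.27 in these groups, did not overlap for the last of them. Lcn2 behaved otherwise, since its ratio to Ltf was 12.6 to 48.2 in wild type at ZT5 and 1.13 to 1.22 in the Cxcr4 mutants. Within each of the 5 groups, Ltf, Camp and Ngp were highest in the same library, and in 3 of 5 they were also lowest in the same one. For the label Cxcr2-deficient, with 2 libraries, the shared highest library fixes the lowest. In wild type at ZT5 and at ZT13, Ngp was lowest in another library than Ltf and Camp. Neighbours on chromosome 9 did not share the rise: of 15 other tested genes between Camp and Ltf, 1 (Map4, 0.90, limma adjusted p = 0.0106) was higher in the Cxcr4 mutants than in wild type at ZT5 and 0 were lower, with a median log2 difference of -0.00051 and a range of -1.61 to 1.36.

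Other specific granule genes moved with the members. Of 11 listed, 10 were tested and 8 were higher in the Cxcr4 mutants than in wild type at ZT5, 0 lower, with a median log2 difference of 1.27. Cd177, a surface protein stored in specific granules, rose from 88.5 ± 28.9 to 1531 ± 270 (SD, n = 3 each), by 4.13 (limma adjusted p = 5.27e-11). Anxa3, an annexin of neutrophil granules, rose from 4.11 ± 3.23 to 87.9 ± 18.2, by 4.31 (1.45e-05). Mmp8, the neutrophil collagenase, rose from 402 ± 142 to 3046 ± 463, by 2.97 (2.80e-09), and Cybb, the large subunit of the membrane part of the NADPH oxidase, by 1.84 (1.80e-05). Itgam (integrin alpha M), Clec5a (a lectin receptor), Chil1 (a chitinase-like protein) and Cyba (the small subunit beside Cybb) rose by 1.28, 1.19, 1.26 and 0.88, and the Cyba call was lost without Cxcr4 replicate 5 (adjusted p = 0.0564). Itgam is also on the neutrophil marker list, so its rise is counted in both lists. Slpi, at 0.38, and Orm1, at 0.36, did not pass. Against each of the other mutant groups 5 of the 10 were higher, Cd177, Cybb, Mmp8, Anxa3 and Itgam; of these, Anxa3 lost its call without Cxcr2 replicate 5 (adjusted p = 0.0687) or, against the Bmal1 label, without Cxcr4 replicate 5 (0.0740), and Itgam lost it against the Cxcr2 label without Cxcr2 replicate 4 or 5 or Cxcr4 replicate 4 (adjusted p up to 0.180). Medians were 1.04 against the Cxcr2 label and 1.41 against the Bmal1 label. In wild type at ZT13, 0 of 10 passed against ZT5 in limma or edgeR and 2 in DESeq2, with 4 at an unadjusted p under 0.05 (median 0.37). Cybb was lower against wild type at ZT5 in the libraries labelled Bmal1-deficient (-1.16, adjusted p = 0.0182) and in those labelled Cxcr2-deficient (-1.27, adjusted p = 0.0306), where no other gene of the list passed in limma, edgeR called 0 and DESeq2 4 and 3, and the medians were 0.53 and 0.56. At an unadjusted limma p under 0.05 there were 7 and 6 of the 10, beside 13.5% of all genes in both comparisons. Of these, Mmp8 (0.84 and 0.77), Anxa3 (1.93 and 1.34), Clec5a (0.68 and 0.90), Cyba (0.70 and 0.64) and Slpi (0.62 and 0.96) were higher. Cybb, and Itgam under the label Bmal1-deficient (-0.66), were lower. The first Cybb call was lost without wild-type replicate 5 at ZT5 or Bmal1 replicate 3 or 4, and the second without wild-type replicate 5 or 9 at ZT5 or Cxcr2 replicate 5 (-0.84 there), with adjusted p up to 0.252 and 0.326 over the alternatives. Other settings took them too, the replicate block both and, for the second, a pseudocount of 0.1 and a fit of only the compared groups.

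Genes of the other granule classes were compared in the same way. Of 4 gelatinase granule genes tested of 5 listed, Mmp25, at 2.08 (limma adjusted p = 0.000461), and Mmp9, the gelatinase itself, at 1.26 (0.000103), were higher in the Cxcr4 mutants than in wild type at ZT5, and the median was 0.84. Mmp9 is also on the neutrophil marker list, so its rise is counted in both lists. Against the label Bmal1-deficient Mmp25 was higher, by 2.40, and against the label Cxcr2-deficient 0 of 4 passed in limma or edgeR and 1 in DESeq2, with 2 at an unadjusted p under 0.05. Those 2 were Mmp25, at 1.40, and Mmp9, at 0.48, and the share of all genes at that unadjusted p is not given here. Azurophil granules are filled first, at the promyelocyte stage, with myeloperoxidase and serine proteases. Of 9 azurophil genes listed, 5 were tested (median 0.097), and Mpo, Elane, Prtn3 and Ctsg were not analysed here. Cd63, a granule membrane protein, was 1.18 higher (adjusted p = 0.00874), and Ctsc, the protease that activates the serine proteases, was lower by -3.25 (0.00580), at 9.15 ± 8.54 against 75.4 ± 48.5 (SD, n = 3 each). Both calls were lost without wild-type replicate 5 at ZT5 or without Cxcr4 replicate 4, with adjusted p up to 0.0638 for Cd63 and 0.0727 for Ctsc over the alternatives. Ctsc was low in the other mutants too, at 15.7 ± 14.5 (SD, n = 3) under the label Bmal1-deficient and 7.57 ± 2.61 (SD, n = 2) under the label Cxcr2-deficient, without passing against wild type in limma. Srgn, serglycin, was lower against the Cxcr2 label (-1.12, adjusted p = 0.00340) and the Bmal1 label (-0.88, 0.00798), the first call being lost without Cxcr2 replicate 5 (0.0874) and the second without Bmal1 replicate 3 (0.0544).

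**Figure D4:**
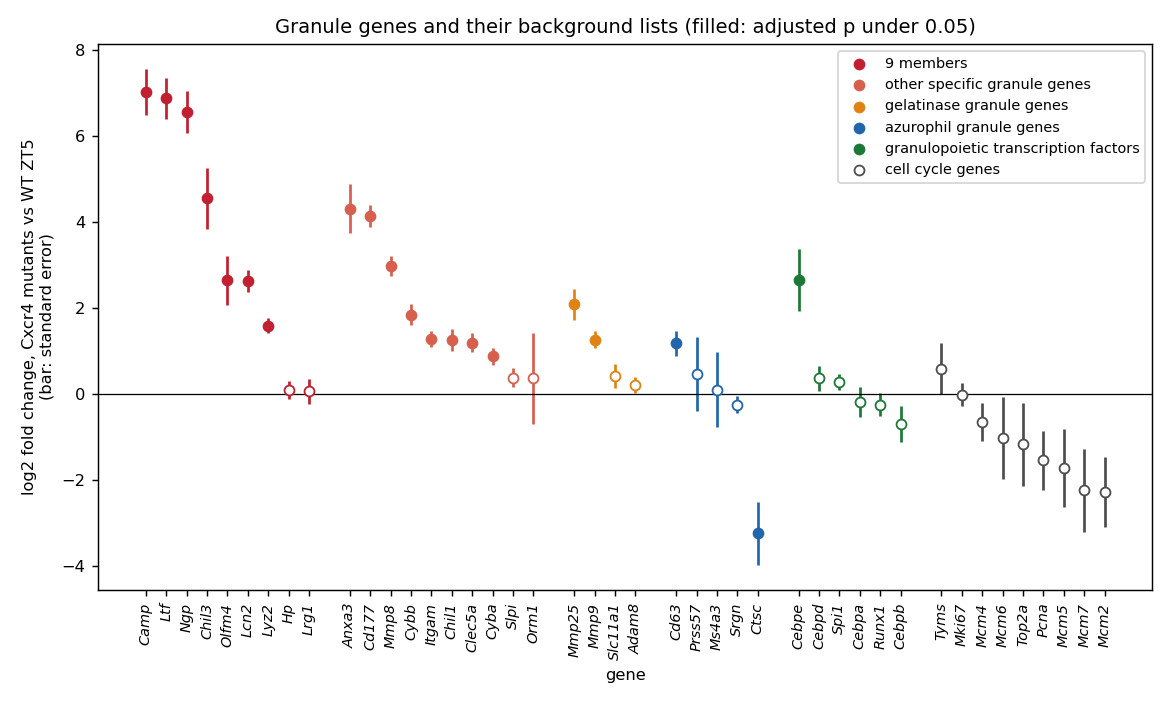
Log2 difference between the Cxcr4 mutants and wild type at ZT5 for the 9 specific granule protein genes and for the tested genes of the other lists, 1 point per gene with its standard error as a bar, and genes past the adjusted p of 0.05 drawn filled. The 9 genes and the other specific granule genes all lie above 0, from 0.06 to 7.03, and none of the 9 cell cycle genes is filled.

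Of 7 granulopoietic transcription factors, 6 were tested and 1 passed against wild type at ZT5 (median 0.041). Cebpe, which encodes C/EBP epsilon, was at 27.4, 38.2 and 52.5 in the Cxcr4 mutants and at 4.19, 7.60 and 4.33 in wild type at ZT5. Its highest value in the other 11 libraries was 19.2, so the groups did not overlap. The log2 difference was 2.66 (SE 0.72, limma adjusted p = 0.0205), and the call was lost without wild-type replicate 5 or 9 at ZT5 or without Cxcr4 replicate 4 or 5, with adjusted p up to 0.105 over the alternatives. Against the libraries labelled Cxcr2-deficient Cebpe differed by 2.70 (adjusted p = 0.0571) and against those labelled Bmal1-deficient by 2.23 (0.0698). Cebpa, Cebpb, Cebpd, Spi1 and Runx1 lay between -0.70 and 0.36 and did not pass. Cell cycle genes, which mark dividing precursors, gave 0 calls in either direction among 9 tested of 15 listed, in limma, edgeR and DESeq2, with 3 at an unadjusted p under 0.05 and a median of -1.18. Those 3, Mcm2, Mcm7 and Pcna, were lower, at -2.29, -2.25 and -1.55. The share of all genes at that unadjusted p is not given here. Mki67 was at 100 ± 34.9 in the Cxcr4 mutants and 101 ± 30.7 in wild type at ZT5 (SD, n = 3 each). In the comparisons of ZT13 and of the labels Bmal1-deficient and Cxcr2-deficient with wild type at ZT5, limma and edgeR called 0 genes of the gelatinase, azurophil, transcription factor and cell cycle lists, while DESeq2 called 1 gelatinase gene under each label and 2 azurophil genes under the label Cxcr2-deficient. At an unadjusted p under 0.05 there were 1 to 3 azurophil, 1 gelatinase, 0 to 2 transcription factor and 0 to 2 cell cycle genes per comparison. The medians in those comparisons, in the order given, were 0.08, 0.25 and 0.38 for gelatinase, 0.45, 0.93 and 0.67 for azurophil, 0.10, 0.25 and -0.14 for transcription factor and -0.43, -0.72 and -0.67 for cell cycle genes. Against the other mutants, the Cxcr4 mutants gave 0 calls for the transcription factors and cell cycle genes in all 3 tools. The list medians against the Cxcr2 and Bmal1 labels were 0.44 and 0.34 for gelatinase, -0.35 and -0.88 for azurophil, -0.034 and -0.0026 for transcription factor and -0.60 and -0.36 for cell cycle genes.

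The 10 other genes most like the members were taken by the root mean square (RMS) difference, over the 14 libraries, between their log2 profile and the mean profile of the 9 genes, each centred on its own mean, among 6240 genes. They were Cd177 (RMS difference 0.44), Rhou (0.50), Syne1 (0.50), Ly6c2 (0.57), Mgst1 (0.62), Per2 (0.62), Fmnl2 (0.64), Golim4 (0.64), Ly6g (0.66) and Tagln2 (0.66). Of these, Cd177 alone is on a list of specific granule genes, and Ly6g is the gene of the sort marker. Syne1, which encodes a nuclear envelope linker protein, rose from 48.7 ± 9.47 to 538 ± 45.6, and Per2, a clock gene, from 33.4 ± 10.2 to 211 ± 32.8 (SD, n = 3 each) between wild type at ZT5 and the Cxcr4 mutants. Rhou, a small GTPase, rose from 14.1 ± 4.92 to 98.0 ± 14.9. The members themselves lay at 0.66 (Lcn2) to 1.62 (Camp and Hp), since the mean profile falls between the genes that rose most and those that did not. Likeness over these libraries rests almost wholly on the Cxcr4 mutants, and 7 to 9 of the 10 genes were named again when 1 library was left out.

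**Figure D5:**
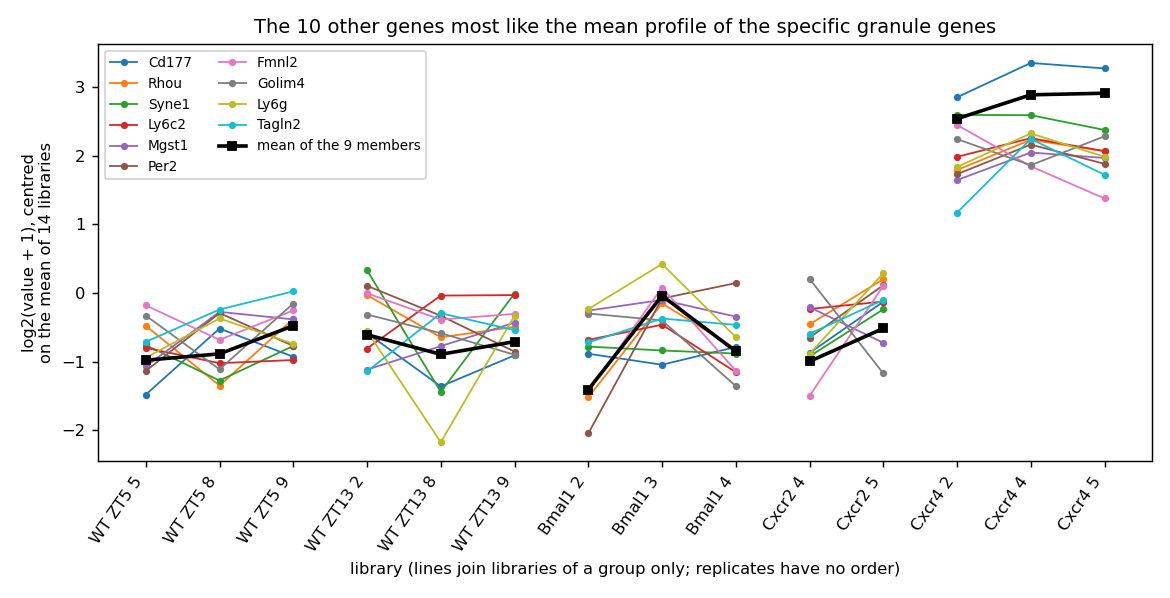
Centred log2 profiles over the 14 libraries of the mean of the 9 specific granule protein genes and of the 10 other genes most like it, by library and group. All rise in the 3 Cxcr4 mutant libraries, and the closest, Cd177, differs from the mean profile by 0.44 (RMS, log2).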

How the data were processed

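RNA of 14 libraries of sorted blood neutrophils was measured. The submitters' processing notes name CASAVA 1.8.2, cutadapt, RSEM 1.2.3 and GRCm38. Of the normalization, no account is given in the sources used here. Values are normalized read counts, a signal per gene and library, in 1 table that the authors deposited. All nonzero values of a column (100.0%, within 1e-06 reads) are whole reads multiplied by the same constant, from 0.127 to 0.244, and dividing by it gave reads. Symbols, coordinates and exonic lengths came from GENCODE M21, with 11188 identifiers matched and 100 not. Replicates differed beyond sampling noise in all groups (chi-square per degree of freedom 17.8 to 61.7).

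Comparisons used limma 3.58.1 (R 4.3.3), as a linear model with intensity trend on log2(value + 1) over all 14 libraries. The test covered the 11255 genes with a mean of at least 1, all 9 members among them, and left out 33. Differences of low genes are understated on this scale. P-values are two-sided and adjusted over all genes by the Benjamini-Hochberg method. The script was tested on simulated data. Members, lists and the rule for named genes (all members, the 10 genes most like them whose mean on the log2 scale is 3 or more, up to 4 per list) were chosen with earlier results of these data known. Cyba, Itgam, Clec5a, Chil1, Slpi and Orm1 are named beyond that rule, chosen after their values were seen, as is Map4. Tried as alternatives, 23 in number, were a smaller pseudocount (0.1), testing without a filter, a mean of at least 10, quantile normalization, TMM, edgeR 4.0.16 and DESeq2 1.42.0 on the recovered reads, a fit of only the compared groups, a replicate block, and leaving out each library.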

Additional observations from a re-analysis of the deposited data

How the results depend on the processing

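The 7 members called against wild type at ZT5 in the Cxcr4 mutants kept their calls in all 23 alternatives, between 6.31 and 7.12 for Ltf, 6.10 and 7.34 for Camp, 6.25 and 7.11 for Ngp, 2.28 and 3.14 for Lcn2, 4.24 and 5.04 for Chil3, 2.26 and 3.16 for Olfm4 and 1.43 and 1.80 for Lyz2. The least certain was Olfm4, with adjusted p up to 0.0299. Against the libraries labelled Cxcr2-deficient the number called was 6 to 8 with 1 library left out, 6 without Cxcr2 replicate 5, where Olfm4 was lost, and 8 without wild-type replicate 5 at ZT5, where Hp, at -0.61, passed as lower (limma adjusted p = 0.0136). With the replicate block 1 member passed in the libraries labelled Cxcr2-deficient against wild type, Hp, at 1.22 (adjusted p = 0.0375), in place of 0. Deviations of the 11 same-numbered pairs from their group means had correlations of -0.037 to 0.017 over all genes tested. A pairing that acts on only some genes could be missed by this measure. The block also took the calls of Cebpe, Ctsc and Cd63 in the Cxcr4 mutants against wild type, of Itgam against the label Cxcr2-deficient, and of Cybb under both other labels against wild type. Over the alternatives Cebpe lay between 2.43 and 2.995 and was called in 18 of 23.

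Signs turned only for members that were not called. Between ZT13 and ZT5, quantile normalization turned Lcn2 to -0.18 and Lyz2 to -0.28, DESeq2 turned Lcn2 to -0.014, and the block turned Chil3 to 0.44. For the label Bmal1-deficient the block turned Ltf to -0.64, Camp to -0.41 and Lrg1 to 0.058, quantile normalization Ngp to 0.048 and Lyz2 to -0.19, and edgeR Ngp to 0.0074. For the label Cxcr2-deficient the block turned Camp to -0.31 and Ngp to -0.048. In the Cxcr4 mutants against wild type, quantile normalization turned Hp to -0.15 and Lrg1 to -0.017. It moved the median of all genes there from -0.11 to 0.03 and, for the label Bmal1-deficient, from -0.10 to 0.04. The cause was not tested.

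With 1 library left out, differences at ZT13 ran from -0.52 to 0.67 for Ltf, -1.54 to 0.085 for Camp, -0.45 to 0.59 for Ngp, -0.29 to 0.24 for Lcn2, -0.48 to 0.32 for Chil3, -0.092 to 0.18 for Lyz2 and -0.094 to 0.30 for Lrg1. For the label Bmal1-deficient they ran from -0.15 to 0.52 for Ltf, -0.60 to 0.51 for Ngp and -0.74 to 0.15 for Olfm4, and for the label Cxcr2-deficient from -1.48 to 0.35 for Ltf, -0.79 to 0.89 for Ngp, -1.23 to 0.38 for Olfm4 and -0.28 to 0.74 for Lrg1. In the Cxcr4 mutants they ran from -0.24 to 0.27 for Hp and -0.11 to 0.28 for Lrg1 against wild type, and from -0.69 to 0.33 for Lrg1 against the label Cxcr2-deficient.

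The number of all genes called against wild type at ZT5 was 923 in the Cxcr4 mutants and 564 with the block. It was 75 for the label Cxcr2-deficient, and 17 with edgeR and 316 with DESeq2. It was 115 for the label Bmal1-deficient, and 36 and 255 with those tools. Between ZT13 and ZT5 it was 9, and 3 and 91. With 1 library left out these counts ran from 598 to 945, 19 to 198, 24 to 190 and 2 to 102, in the same order. Against the label Cxcr2-deficient the Cxcr4 mutants gave 237 to 616 and against the label Bmal1-deficient 455 to 824.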
